A study of Mus musculus with 6 samples.

Results

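The genes for the receptors of mouse macrophages for immunoglobulin G (IgG), and for the chain that carries their signal, were followed in bulk RNA-seq of bone marrow-derived macrophages (BMDMs): *Fcgr1*, *Fcgr2b*, *Fcgr3*, *Fcgr4*, *Fcer1g* and *Fcgrt*. They are 6 of the 18506 genes tested, all 6 passed the filter of at least 10 counts in total, and they were listed by name with the difference between WT and *Drp1* KO cells in these same libraries already known. Their differences, and whether each passed the all-gene test, are therefore given as a description, with no p-value and as support for nothing. The 3 WT libraries came from *LysM*-Cre+/- *Drp1*+/+ mice and the 3 *Drp1* KO libraries from *LysM*-Cre+/- *Drp1* fl/fl mice, so that both groups carried a Cre recombinase driven by the lysozyme M promoter, which is active in myeloid cells. DRP1, encoded by *Dnm1l*, is the GTPase that divides mitochondria. On day 7 of culture the cells of both groups were moved to endothelial starvation medium without serum and kept for 8 h at 2.1% oxygen (hypoxia serum starvation, HSS), a culture model of ischemic muscle. No library without HSS was analysed here, and the study's methods describe bone marrow of 2 mice pooled per genotype, so the spread between libraries may be partly technical.

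Fc gamma receptors bind the Fc part of IgG and let a macrophage recognise antibody-coated particles and immune complexes. In the mouse, FcγRI (CD64, from *Fcgr1*), FcγRIII (CD16, from *Fcgr3*) and FcγRIV (CD16.2, from *Fcgr4*) are activating and need the common gamma chain from *Fcer1g*, whose ITAM recruits the kinase SYK. FcγRIIB (CD32B, from *Fcgr2b*) is the inhibitory receptor, with its own ITIM that recruits the phosphatase SHIP1. The neonatal Fc receptor FcRn, from *Fcgrt*, pairs with β2-microglobulin, binds IgG in acidified endosomes and returns it from degradation. Interferon-γ is known to raise FcγRI and FcγRIV on macrophages, and CD64 is also one of the surface markers by which the study gated macrophages in muscle.

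A few sequences of these genes are printed first, and no link from them to the values that follow was tested. The stretches ahead of *Fcgr1* and *Fcgr4*, whose mRNAs were the members higher in *Drp1* KO, are shown because each held a core motif of interferon signalling. In the RefSeq promoter table (250 bases before to 50 after each gene start, build GRCm38.p6), 3 motifs were searched on both strands of the first window listed for each gene: TTCNNNGAA, the core of the gamma activated site; GAAANNGAA, the core of the interferon-stimulated response element; and GAGGAA, a core bound by PU.1. Each window of the 6 genes matched GRCm39 exactly once near its gene, and positions are given on that build. The first line runs from 150 to 50 bases before the start of *Fcgr1* (chr3:96201335-96201435, minus strand) and the next from 150 to 17 bases before the start of *Fcgr4* (chr1:170846345-170846478, plus strand). Of these bases, 4 and 13 lay in exons of protein-coding transcripts and the others ahead of them. Capitals mark every match to the 3 motifs.
Fcgr1: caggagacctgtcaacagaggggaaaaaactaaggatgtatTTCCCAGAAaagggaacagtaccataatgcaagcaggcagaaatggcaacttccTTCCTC
Fcgr4: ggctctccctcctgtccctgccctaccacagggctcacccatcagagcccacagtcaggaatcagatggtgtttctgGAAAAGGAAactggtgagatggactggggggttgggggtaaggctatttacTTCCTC

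In *Fcgr1* the gamma activated site core TTCCCAGAA began 109 bases before the start. In *Fcgr4* the response element core GAAAAGGAA began 73 bases before the start. Both genes also held the PU.1 core on the opposite strand, from 55 bases before the start of *Fcgr1* and from 22 bases before that of *Fcgr4*, read there as TTCCTC. The window of *Fcgr3* held the PU.1 core alone, and those of *Fcgr2b*, *Fcer1g* and *Fcgrt* held none of the 3 motifs. Among all 27025 genes in the table, 8.47% held the first motif, 8.57% the second and 28.3% the third, so single matches are common, and a match is a description of these letters only. *Fcgr3* has 2 windows in the table and only the first was searched.

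The third sequence is an exon of the inhibitory receptor. Its main annotated forms, *Fcgr2b*-201 and *Fcgr2b*-202, differ in 1 wholly coding exon of 141 bases (chr1:170790894-170791034, GRCm39, minus strand), which *Fcgr2b*-201 holds. This exon lengthens the cytoplasmic tail, and the form with it is known to be retained at the cell surface whereas the form without it is endocytosed.
Fcgr2b exon: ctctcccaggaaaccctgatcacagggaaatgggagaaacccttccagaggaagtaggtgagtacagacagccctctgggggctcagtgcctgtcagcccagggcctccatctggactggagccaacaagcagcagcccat

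Depth was 23389488 to 32231206 estimated reads per library, and the lowest count of any of the 6 genes in any library was 1342. The gene-level count of *Dnm1l* was 72.6 ± 2.61 CPM in the WT libraries and 61.9 ± 3.91 in those of *Drp1* KO (mean ± SD, n = 3 each; CPM, counts scaled for library size with TMM factors). It did not pass the test (log2 fold change -0.23, adjusted p = 0.248, edgeR), and since the count includes exons outside the deleted part, it does not check the genotype. The 6 macrophage markers *Adgre1*, *Csf1r*, *Cd68*, *Itgam*, *Mertk* and *Lyz2* summed to 13280–14660 CPM in the WT libraries and 11750–14160 in those of *Drp1* KO, so the labelled cell type showed its markers in every library, with *Csf1r* and *Mertk* lower in *Drp1* KO. The 7 neutrophil markers summed to 5.99–18.6 CPM in the WT libraries and 16.4–41.3 in those of *Drp1* KO, with *Ly6g* at 0 in all libraries and none of the 7 called. Markers of B cells, T and NK cells, mast cells and basophils, dendritic cells and fibroblasts stayed under 7 CPM per list in every library, and *Ncr1*, *Fcer1a*, *Mcpt8*, *Tpsb2* and *Cd209a* were at 0 in all of them.

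The mRNA of 2 activating receptors was higher in *Drp1* KO BMDMs, while that of the inhibitory receptor and of FcRn was lower. *Fcgr1* was 2.53-fold and *Fcgr4* 1.56-fold of WT, and *Fcgr2b* and *Fcgrt* fell by 38.5% and 39.6%. *Fcgr3* and the common chain *Fcer1g*, the most abundant of the 6, overlapped between the groups. At an adjusted p under 0.05 (edgeR, all genes), 4 of the 6 were called, 2 in each direction, beside 3.36% of all genes tested in either direction, 2.29% higher and 1.06% lower. The libraries of the groups did not overlap for 4 of 6 genes, beside 21.9% of all genes. By the study's own rule, a minimum fold change with an unadjusted p under 0.05, 4 of 6 were called, beside 12.7% of all genes. The median log2 fold change was 0.03 over the 6 members and 0.005 over all genes tested. These counts describe genes chosen on this contrast. In bulk RNA, a lower level per cell and fewer cells with the transcript cannot be told apart.

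**Figure D1:**
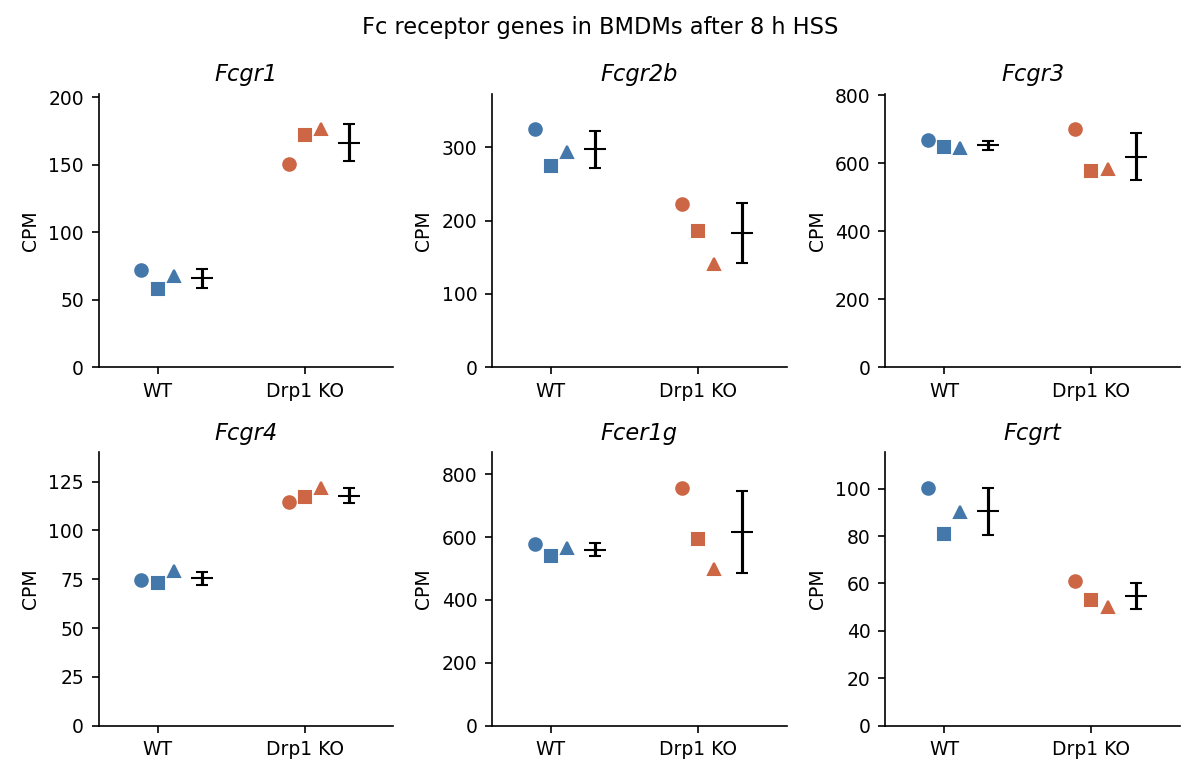
Level in CPM of the 6 genes (vertical axes, each from 0) in the 3 WT and 3 *Drp1* KO libraries; circles, squares and triangles are replicates 1, 2 and 3, and the bar beside each group is the mean ± SD. *Fcgr1* and *Fcgr4* are higher and *Fcgr2b* and *Fcgrt* lower in every *Drp1* KO library than in any WT library, while *Fcgr3* and *Fcer1g* overlap.

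*Fcgr1* (ENSMUSG00000015947, chromosome 3, 96190225–96201338, GRCm39, minus strand) encodes the high-affinity receptor, which can hold monomeric IgG. It was at 71.9, 57.8 and 67.6 CPM in WT libraries 1, 2 and 3 and at 151, 172 and 176 CPM in *Drp1* KO libraries 1, 2 and 3. The lowest *Drp1* KO library was well above the highest WT library. The log2 fold change was 1.34 (standard error 0.111), the largest among the 6 genes. Over the 15 alternative settings it ran from 1.24 to 1.41 and stayed called in each.

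*Fcgr4* (ENSMUSG00000059089, chromosome 1, 170846466–170857330, plus strand) encodes a receptor of intermediate affinity that binds IgG2a and IgG2b. It was at 74.4, 72.9 and 79.3 CPM in WT and at 114, 117 and 122 CPM in *Drp1* KO. Its libraries were the most tightly grouped of the called members, with all *Drp1* KO values above all WT values. The log2 fold change was 0.64 (standard error 0.0873), with a range of 0.60 to 0.66 over the 15 settings, all called. Neutrophils also express *Fcgr4*, and the summed neutrophil markers given above reached higher values in *Drp1* KO libraries. Their part in the value of *Fcgr4* was not tested.

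*Fcgr3* (ENSMUSG00000059498, chromosome 1, 170878738–170893549, minus strand) encodes the low-affinity activating receptor. It was at 669, 647 and 645 CPM in WT and at 700, 576 and 584 CPM in *Drp1* KO, where library 1 lay above and libraries 2 and 3 below all WT libraries. The log2 fold change was -0.08 (standard error 0.104). When protein-coding transcripts alone were counted it was -0.30, also not called.

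*Fcer1g* (ENSMUSG00000058715, chromosome 1, 171057141–171062219, minus strand) encodes the common chain that these activating receptors share. It was at 577, 539 and 566 CPM in WT and at 757, 594 and 499 CPM in *Drp1* KO. The *Drp1* KO libraries lay on both sides of the WT range, with library 1 the highest of the 6 and library 3 the lowest. The log2 fold change was 0.14 (standard error 0.141) and became -0.05 without *Drp1* KO library 1.

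*Fcgr2b* (ENSMUSG00000026656, chromosome 1, 170786186–170804177, minus strand), the inhibitory receptor, was at 325, 275 and 293 CPM in WT and at 222, 186 and 141 CPM in *Drp1* KO. Every *Drp1* KO library was below every WT library, but the *Drp1* KO libraries were far apart, spanning 0.65 on the log2 scale against 0.24 in WT. The log2 fold change was -0.70 (standard error 0.151). The direction held in all 15 settings (-0.87 to -0.54). The call was lost in 6 of them: with length-scaled counts (-0.73), without WT library 1 (-0.64), 2 (-0.77) or 3 (-0.73), and with *Drp1* KO library 2 (-0.71) or 3 (-0.54) left out.

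*Fcgrt* (ENSMUSG00000003420, chromosome 7, 44742412–44756819, minus strand), which encodes the heavy chain of FcRn, was at 100.4, 80.7 and 90.2 CPM in WT and at 60.9, 52.9 and 50.1 CPM in *Drp1* KO. All *Drp1* KO libraries were below all WT libraries. The log2 fold change was -0.73 (standard error 0.115), between -0.82 and -0.65 over the 15 settings, all called. Its partner *B2m*, which also pairs with class I molecules, moved the other way, at 2434, 2003 and 2041 CPM in WT and 3984, 3969 and 3445 CPM in *Drp1* KO. *B2m* rose (log2 fold change 0.82, standard error 0.119, adjusted p = 0.00536, edgeR), and the adjusted p was 0.0681 without WT library 2 and 0.0552 without WT library 3. On a per-length scale (TPM, which divides by transcript length), the *Fcgrt* level was 0.0142 ± 0.000914 of that of *B2m* in WT and 0.00508 ± 0.000415 of it in *Drp1* KO.

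**Figure D2:**
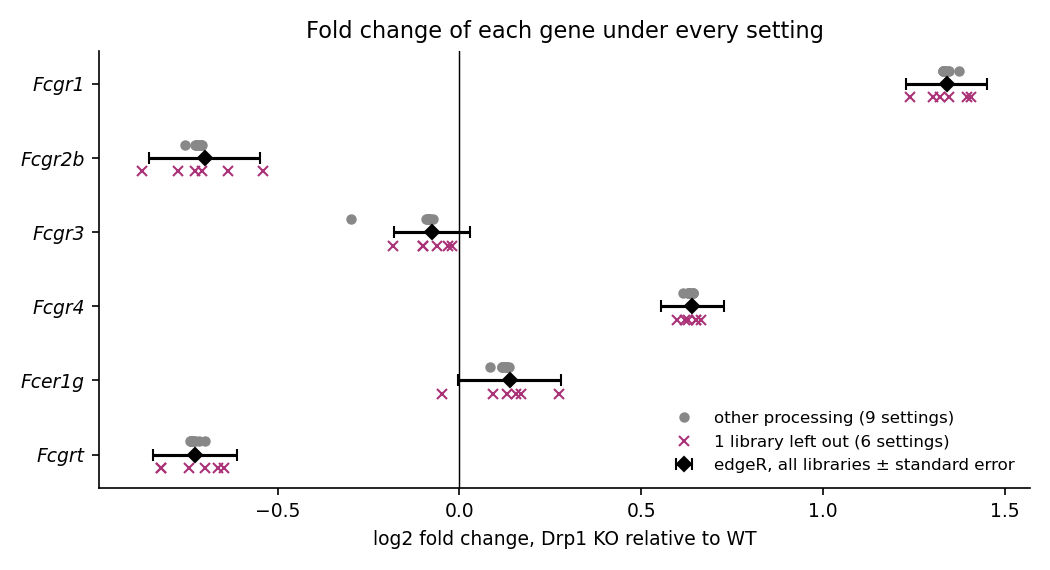
Log2 fold change of *Drp1* KO relative to WT (horizontal axis) for each gene; diamonds are edgeR values with all 6 libraries ± standard error, grey circles 9 other processing settings, and crosses the 6 settings that each leave out 1 library. *Fcgr1*, *Fcgr4*, *Fcgr2b*, *Fcgrt* and also *Fcgr3*, which was not called, keep their side of 0 in every setting, and *Fcer1g* crosses it in 1.

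Levels were compared between genes in TPM, summed over the transcripts of a gene. In WT the order was *Fcer1g* (1674 ± 96.2 TPM), *Fcgr3* (799 ± 28.4), *Fcgr2b* (233 ± 17.8), *Fcgr4* (104 ± 9.64), *Fcgrt* (81.5 ± 11.2) and *Fcgr1* (39.4 ± 6.61; mean ± SD, n = 3), and no neighbours in this order overlapped between libraries. In *Drp1* KO it was *Fcer1g* (1662 ± 277 TPM), *Fcgr3* (715 ± 56.5), *Fcgr4* (150 ± 11.6), *Fcgr2b* (132 ± 30.5), *Fcgr1* (96.7 ± 12.5) and *Fcgrt* (47.4 ± 1.98). There *Fcgr4* and *Fcgr2b* overlapped, as did *Fcgr2b* and *Fcgr1*, so the place of *Fcgr2b* among them was not settled, while *Fcgr4* was above *Fcgr1* in every library. The inhibitory receptor was thus at a higher level than *Fcgr4* and *Fcgr1* in every WT library, but not in every *Drp1* KO library.

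The 4 Fc gamma receptors together made up 1176 ± 48.1 TPM in WT and 1094 ± 56.1 TPM in *Drp1* KO, ranges that overlapped, while their make-up differed. *Fcgr3* was the main transcript in both groups, at 68.0% ± 1.39 of the summed TPM in WT and 65.3% ± 1.94 in *Drp1* KO. The share of *Fcgr2b* was 21.1%, 18.9% and 19.4% in WT and 13.8%, 13.0% and 9.27% in *Drp1* KO. The share of *Fcgr4* was 8.35%, 8.80% and 9.42% in WT and 12.0%, 14.3% and 15.1% in *Drp1* KO, and that of *Fcgr1* 3.91%, 2.90% and 3.23% against 7.17%, 9.50% and 9.99%. For these 3 genes the shares did not overlap between groups. The ratio of the summed activating receptors to *Fcgr2b* was 3.74, 4.29 and 4.16 in WT and 6.24, 6.70 and 9.79 in *Drp1* KO. For each receptor alone, the mean ratio to *Fcgr2b* went from 0.168 to 0.776 for *Fcgr1*, from 0.449 to 1.20 for *Fcgr4* and from 3.44 to 5.60 for *Fcgr3*. These are ratios of mRNA, and no protein was measured in these libraries. They use the values on which the members were chosen. The sums, shares and ratios given here count every transcript of a gene, including retained-intron forms. Of the TPM of *Fcgr3*, the retained-intron transcript *Fcgr3*-203 held 16.07%, 24.15% and 26.57% in WT and 35.12%, 23.14% and 42.25% in *Drp1* KO. Sums and ratios of protein-coding transcripts alone were not compared and may differ.

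**Figure D3:**
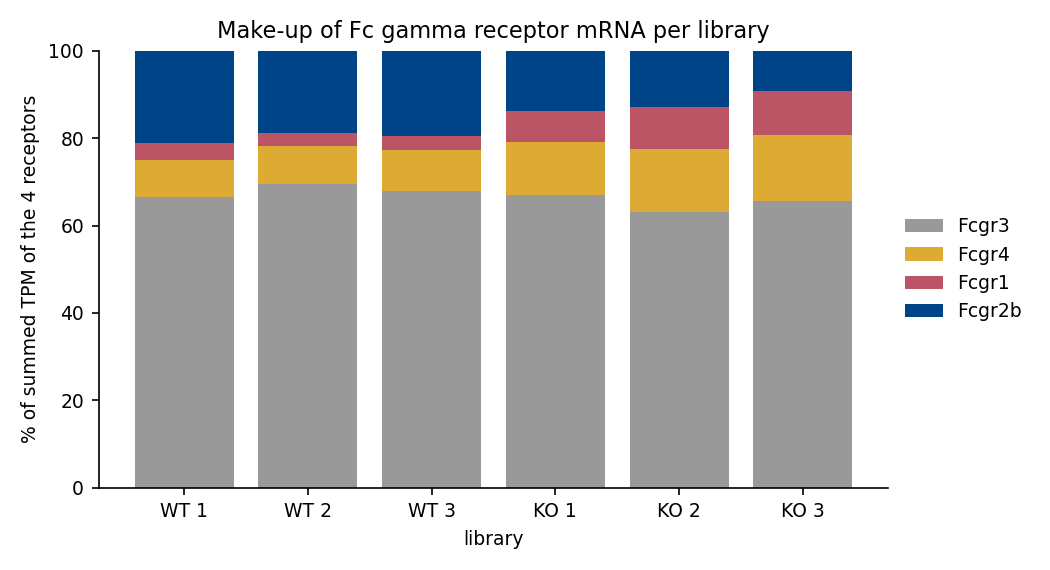
Share of each receptor (vertical axis, % of the summed TPM of *Fcgr1*, *Fcgr2b*, *Fcgr3* and *Fcgr4*) in each of the 6 libraries. *Fcgr2b* takes 18.9% to 21.1% in WT and 9.27% to 13.8% in *Drp1* KO, where *Fcgr1* and *Fcgr4* take more.

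*Fcgr2b*, *Fcgr4* and *Fcgr3* lie in this order on chromosome 1, 42289 and 21408 bases apart, and *Fcer1g* lies on the same chromosome. *Fcgr4* runs on the opposite strand, between *Fcgr2b* and *Fcgr3*, and its value went the other way from that of *Fcgr2b*. Among the other protein-coding genes within 100 kb of any of the 6, 46 of 50 were tested, and by edgeR none rose (2 at an unadjusted p under 0.05, beside 9.03% of all genes, and 0 by DESeq2 and limma-voom) and 1 fell, *Bola1* near *Fcgr1* (log2 fold change -1.12, adjusted p = 0.0238). *Bola1* lost its call when WT library 2 (adjusted p = 0.129, edgeR) or 3 (0.0695) was left out, and likewise for *Drp1* KO library 3 (0.0902). Since these receptors arose by duplication, reads might be divided between them. Of the distinct 31-base words (the length of a kallisto index word) in transcripts of *Fcgr3*, 12.1% also occurred in *Fcgr2b*, and of those in *Fcgr2b*, 4.15% occurred in *Fcgr3*. *Fcgr4* shared 1.12% of its words with any other gene, and *Fcgr1* and *Fcer1g* shared 0. The words were read from GENCODE vM39, in which 12 of the 23 member transcripts had the length given in the deposited tables, so they may differ from those the authors indexed. *Fcgr2b*, *Fcgr3* and *Fcgr4* summed as 1 gene reached 1027 ± 37.3 CPM in the WT libraries and 921 ± 102 in those of *Drp1* KO, and this sum was not called (log2 fold change -0.16, standard error 0.106). Long noncoding or small RNA genes overlap *Fcgr2b*, *Fcgr3*, *Fcgr4*, *Fcer1g* and *Fcgrt* in the annotation but were not among the transcripts quantified.

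The division of each gene's counts among its transcripts is a measure that did not choose the members. It was tested for the 9 transcripts with a mean share of at least 10%, by an exact two-sided permutation test of 3 against 3 libraries, which cannot go below p = 0.1, and the lowest adjusted p was 0.45. *Fcgr2b*-201, the form with the exon printed above, held 46.1%, 45.7% and 49.2% of the counts of *Fcgr2b* in WT and 44.9%, 47.0% and 57.2% in *Drp1* KO. *Fcgr2b*-202, without it, held 47.5%, 44.8% and 42.7% in WT and 46.0%, 40.0% and 31.1% in *Drp1* KO. The *Fcgr2b*-202 share was below all WT libraries in *Drp1* KO libraries 2 and 3 but not in library 1, and it was lower than in the same-numbered WT library in all 3; that of *Fcgr2b*-201 was above all WT libraries in *Drp1* KO library 3 alone. The forms also differ in deposited length (3544 and 1462 bases), so the shares rest on more than the exon. Per length, as shares of TPM, *Fcgr2b*-201 held 24.1%, 23.8% and 26.2% in WT and 23.7%, 25.2% and 33.3% in *Drp1* KO, and *Fcgr2b*-202 held 67.8%, 64.5% and 62.7% against 64.9%, 58.1% and 49.0%. For *Fcgr3*, the retained-intron transcript *Fcgr3*-203 held 15.5%, 23.6% and 25.8% in WT and 34.1%, 22.4% and 41.1% in *Drp1* KO, groups that overlapped (exact permutation p = 0.3). *Fcgr4* has 1 transcript in the files, and *Fcgr1*-201 and *Fcer1g*-201 held 97.5% and 99.6% of their gene's counts in WT. In *Fcgrt*, *Fcgrt*-201 held 58.9% ± 3.96 in WT and 55.0% ± 3.38 in *Drp1* KO. *Fcgrt*-203 held 11.1%, 16.3% and 10.0% in WT and 20.3%, 16.9% and 12.0% in *Drp1* KO, higher in each than in the same-numbered WT library (as a share of TPM, in libraries 1 and 3 but not 2), with groups that overlapped (exact permutation p = 0.2, adjusted p = 0.45).

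Around the receptors, 6 lists of 103 genes were read from the same fit, of which 94 were tested. Of these, 9 rose and 1 fell, which is 10.6% beside 3.36% of all genes, with a median log2 fold change of 0.03. With the replicate number as a block, 27 of the 94 were called, beside 12.0% of all genes (2212). Fewer were called with WT library 2 (5) left out, with WT library 3 (5) left out and with *Drp1* KO library 2 (6) left out, settings in which 181, 217 and 268 of all genes were called in place of 621. The lists were drawn up with earlier results of these libraries known, and their counts are a description.

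Among 24 kinases, adaptors and enzymes downstream of the ITAM, 1 rose by edgeR, none fell and 23 did not pass (median log2 fold change -0.07). DESeq2 and limma-voom also called 0 lower, and 4 were lower at an unadjusted p under 0.05 (*Grb2*, *Pik3cd*, *Plcg1* and *Plcg2*), beside 7.39% of all genes lower at that level. *Lat2*, the adaptor LAB of myeloid and B cells, was at 291, 253 and 244 CPM in WT and 336, 393 and 372 CPM in *Drp1* KO (log2 fold change 0.48, adjusted p = 0.0365, edgeR). The call was lost when WT library 2 (adjusted p = 0.221) or 3 (0.217) or *Drp1* KO library 2 (0.148) or 3 (0.0977) was left out, and it did not hold when protein-coding transcripts alone were counted (0.118). *Syk*, the kinase that binds the phosphorylated ITAM, was at 745, 673 and 631 CPM in WT and 739, 604 and 592 CPM in *Drp1* KO and did not pass (log2 fold change -0.08, adjusted p = 0.820, edgeR).

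Among 14 inhibitory enzymes and adaptors, 1 rose and none fell by edgeR (median 0.01), with 0 lower by DESeq2, limma-voom or an unadjusted p under 0.05. *Lilrb4a*, an ITIM receptor of myeloid cells, was at 499, 638 and 592 CPM in WT and 916, 859 and 812 CPM in *Drp1* KO (log2 fold change 0.58, adjusted p = 0.0223, edgeR). This value is uncertain: *Lilrb4a* belongs to a family of near-identical genes, its log2 fold change was 3.40 when protein-coding transcripts alone were counted, and the adjusted p was 0.0681, 0.0988 and 0.0863 with WT library 2, with WT library 3 and with *Drp1* KO library 2 left out. *Inpp5d*, which encodes the SHIP1 recruited by FcγRIIB, was at 225, 188 and 201 CPM in WT and 224, 194 and 204 CPM in *Drp1* KO (log2 fold change 0.02, adjusted p = 0.973, edgeR).

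Of 26 genes of the actin and phagosome machinery, 25 were tested, 1 rose and 1 fell by edgeR (median 0.06). DESeq2 called 3 higher and 3 lower, and limma-voom 2 higher and 1 lower. At an unadjusted p under 0.05 by edgeR, 7 were higher and 4 lower, beside 9.03% and 7.39% of all genes. *Myo10*, the unconventional myosin of filopodia and phagocytic cups, was at 134, 119 and 124 CPM in WT and 69.2, 61.0 and 71.0 CPM in *Drp1* KO (log2 fold change -0.91, standard error 0.0983, adjusted p = 0.000903, edgeR), and it was called in all 15 settings. *Arpc5*, a subunit of the Arp2/3 complex that branches actin, was at 233, 224 and 228 CPM in WT and 278, 303 and 326 CPM in *Drp1* KO (log2 fold change 0.40, adjusted p = 0.0468, edgeR). *Arpc5* lost its call in 8 of 15 settings, with adjusted p of 0.0634, 0.251 and 0.221 without WT library 1, 2 and 3 and of 0.152 and 0.147 without *Drp1* KO library 2 and 3. With the replicate block, 10 of the 25 were called, beside 12.0% of all genes, 7 higher and 3 lower. The 7 were *Arpc5*, *Actr2*, *Actr3*, *Arf6*, *Cfl1*, *Cdc42* and *Rac2*, with log2 fold changes of 0.26 to 0.47, and the 3 were *Myo10* (-0.91), *Bin2* (-0.48) and *Myo1f* (-0.32).

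Of 14 other Fc and immunoglobulin receptor genes, 8 were tested and 2 rose, *B2m* and *Fcrl5* (median 0.22), with 0 lower by edgeR, DESeq2, limma-voom or an unadjusted p under 0.05. *Fcrl5*, an Fc receptor-like gene known mainly from B cells, was at 3.06, 1.499 and 1.33 CPM in WT and 16.3, 14.9 and 14.7 CPM in *Drp1* KO (log2 fold change 2.98, standard error 0.267, adjusted p = 0.000389, edgeR). The 5 B cell markers summed to 3.54–5.65 CPM in the WT libraries and 5.72–6.84 in those of *Drp1* KO, most of it *Cd79b* (mean 4.07 and 5.95 CPM), while *Ms4a1* was at 0.332 and 0.183 CPM. Their part in the value of *Fcrl5* was not tested. *Trim21*, the cytosolic receptor for antibody on entering viruses, was at 13.6, 16.2 and 14.9 CPM in WT and 16.1, 22.4 and 24.5 CPM in *Drp1* KO and did not pass (log2 fold change 0.49, adjusted p = 0.144, edgeR). The adjusted p of *Trim21* was 0.0163 with the replicate block and 0.0207 without *Drp1* KO library 1.

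Of 11 receptors and adaptors that pair with the common chain or resemble it, 9 were tested and none was called by edgeR or limma-voom (median 0.11), while DESeq2 called 1 lower. The same 3 genes, *Clec4e*, *Clec4n* and *Cd300ld*, had an unadjusted p under 0.05, beside 16.4% of all genes in either direction, and were called with the replicate block. *Tyrobp*, which encodes the related ITAM adaptor DAP12, was at 210, 191 and 237 CPM in WT and 256, 222 and 213 CPM in *Drp1* KO (log2 fold change 0.11, adjusted p = 0.707, edgeR).

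Of 14 transcription factors known at Fc receptor genes, 4 rose and none fell by edgeR (median 0.09), with 0 lower by DESeq2 and limma-voom and 2 lower at an unadjusted p under 0.05, *Cebpa* and *Mitf*. With the replicate block, *Cebpa* was called lower (log2 fold change -0.38, adjusted p = 0.0228, edgeR). Of those that rose, *Stat2* and *Irf9*, whose products bind the interferon response element as parts of 1 complex, had log2 fold changes of 1.33 (adjusted p = 0.00124, edgeR) and 0.98 (adjusted p = 0.00149, edgeR). *Irf1*, an interferon-induced factor, was at 45.1, 40.1 and 35.8 CPM in WT and 55.7, 60.6 and 65.5 CPM in *Drp1* KO (log2 fold change 0.59, adjusted p = 0.0214, edgeR). *Irf1* lost its call with length-scaled counts (adjusted p = 0.0788, edgeR). Without 1 library, *Irf1* had an adjusted p of 0.142 (WT library 2), 0.125 (WT library 3), 0.0859 (*Drp1* KO library 2) and 0.0679 (*Drp1* KO library 3), and *Stat2* and *Irf9* stayed called in all 15 settings. *Spi1*, which encodes PU.1, was at 115, 98.3 and 100.5 CPM in WT and 128, 103 and 98.6 CPM in *Drp1* KO (log2 fold change 0.07, adjusted p = 0.857, edgeR). *Irf8*, a partner of PU.1, was at 238, 153 and 146 CPM in WT and 222, 177 and 144 CPM in *Drp1* KO (log2 fold change 0.02, adjusted p = 0.988, edgeR).

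**Figure D4:**
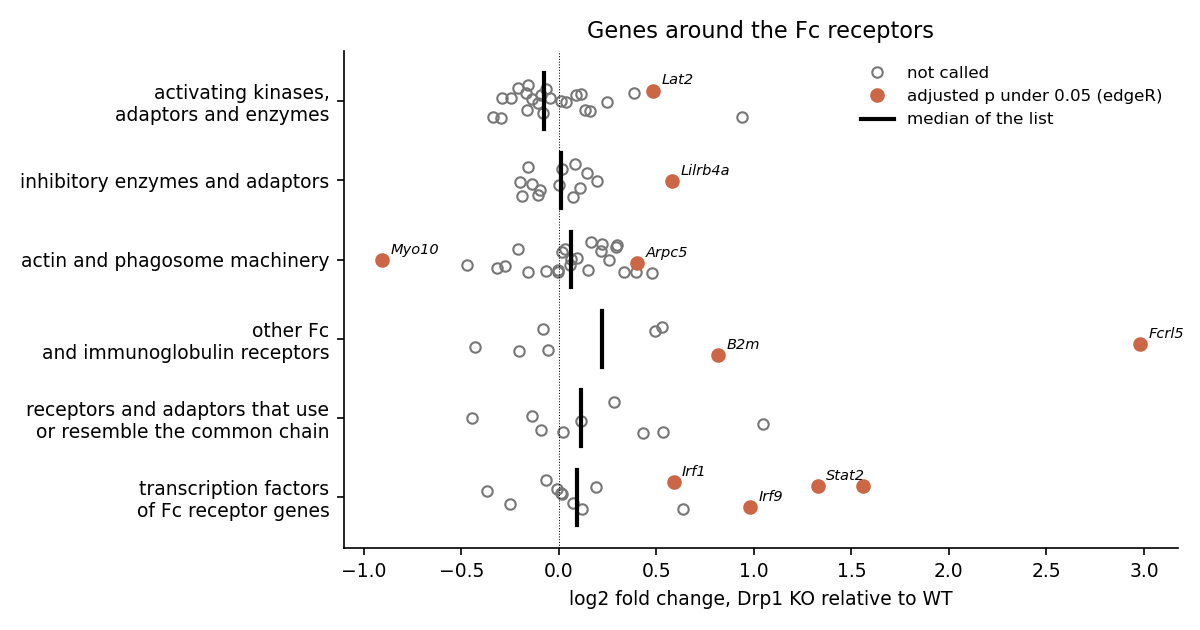
Log2 fold change of *Drp1* KO relative to WT (horizontal axis) for the 94 tested genes of the 6 lists (rows; the vertical scatter within a row carries no value). Filled points are the 10 genes with an adjusted p under 0.05 (edgeR), open points the other 84, names stand beside those named in the text, and black lines are the list medians, which run from -0.07 to 0.22.

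Across the 6 libraries, log2 CPM of *Fcgr1* and *Fcgr4* moved together (Pearson's r = 0.99), as did *Fcgr2b* and *Fcgrt* (r = 0.96), and *Fcgr4* ran opposite to *Fcgrt* (r = -0.95). *Fcer1g* was close to none of the others except *Fcgr3* (r = 0.63). These coefficients describe 6 libraries in 2 groups and largely repeat the group difference. Of the 7953 genes averaging 10 CPM or more, those closest to *Fcgr1* were *Camkk2*, *Lims1* and *Rap2c* (lowest r 0.997), and those closest to *Fcgr4* were *Fndc3a*, *Zfp280c* and *Naf1* (lowest r 0.9958). *Rpl13*, *Nup88* and *Smdt1* were closest to *Fcgr2b* (lowest r 0.9941), and *Zfp101* and *Trf* were near the top for *Fcgrt* (r = 0.9942 and 0.9928). *Atp2a3*, *Zyx* and *Fkbp2* were closest to *Fcgr3* (lowest r 0.9892), and *Atp5f1c*, *Wfs1* and *Tex261* to *Fcer1g* (lowest r 0.9848).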

How the data were processed

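RNA from 3 WT and 3 *Drp1* KO BMDM cultures after HSS was sequenced by the study from stranded poly(A) libraries. Per the labels the authors used kallisto 0.46.1 (GRCm39) and DESeq2 1.44.0. The strand setting is not given in the sources used here. The labels give 2.1% oxygen, and the paper's text differs slightly in oxygen, L929 medium, RNA extraction and DESeq2 version. The authors deposited an estimated count (expected count) and a TPM per transcript, unscaled between libraries, and 0 columns of per-sample values were left unused.

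Of 116873 transcripts, 116159 (99.4%) matched GENCODE vM39; the others held 0.542% to 0.575% of a library's counts and were left out. The deposited estimated counts were summed per gene and rounded, and the deposited TPM were summed per gene for levels between genes. Genes with at least 10 counts were fitted with edgeR 4.0.16 (R 4.3.3; TMM, quasi-likelihood, Benjamini-Hochberg over all 18506 genes, no covariate), and a fold change is that fit's. The fit was tested on simulated data. Standard errors follow from the fold change and the F statistic. DESeq2 1.42.0, limma-voom (limma 3.58.1), other scalings, filters and count units, and each library left out were the alternatives. A count of 3 equals 0.0917 to 0.136 CPM, and that floor covers counting error only.

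The members and lists were chosen with earlier results of these data known. Named genes are the members, list genes past an adjusted p of 0.05 plus *Syk*, *Inpp5d*, *B2m*, *Tyrobp*, *Trim21*, *Irf8* and *Spi1*, the 3 genes most correlated with each member, called neighbours within 100 kb and *Dnm1l*. A few genes that this rule names or the marker lists hold are not reported here. Genes named for the replicate block or an unadjusted p, and 0-count markers, were chosen after their values were seen. Deviations from the group means correlated at 0.51, 0.204 and 0.298 between libraries of the same number (12248 genes), but also at 0.326 between WT library 2 and *Drp1* KO library 3. Pairing by number thus rests on these data, not on the labels, and of the fits and tests only the replicate block uses it.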

Additional observations from a re-analysis of the deposited data

How the results depend on the processing

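*Fcgr1*, *Fcgr4* and *Fcgrt* kept their direction and call in all 15 settings; *Fcgr2b* kept its direction but not its call in 6, given in the report. The members called numbered 3 or 4 in these settings. Adding *Fcgr2b*, *Fcgr3* and *Fcgr4* as 1 gene removes them as separate genes, and there *Fcgr1* and *Fcgrt* stayed called. Of all genes, 621 were called, against 1155 by DESeq2, 1065 with no filter beyond 1 count, 2212 with the replicate block and 181 to 904 with 1 library left out. Of the list genes, 10 were called, against 27 with the replicate block and 5 to 14 with 1 library left out. The cause was not tested. The replicate block, a paired fit, changed no call of a member, and the list genes whose call it changed are counted or named in the report. Values near 0 moved or changed sign: with length-scaled counts the log2 fold changes were -0.059 for *Inpp5d*, -0.007 for *Irf8* and, not called, 0.327 for *Spi1*, and leaving out 1 library gave ranges of -0.047 to 0.273 for *Fcer1g*, -0.056 to 0.089 for *Inpp5d*, -0.171 to 0.272 for *Irf8* and -0.066 to 0.146 for *Spi1*, each lowest, but for *Inpp5d*, without *Drp1* KO library 1. Transcript shares (percentage points, *Drp1* KO minus WT) also changed sign, with ranges over the libraries left out of -1.70 to 0.03 for *Fcgr1*-201 (-3.19 as a share of TPM), -1.04 to 5.13 for *Fcgr2b*-201 and -4.32 to 2.24 for *Fcgrt*-206. With 3 libraries a group, the permutation test of a transcript share cannot pass 0.05 at any depth.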
